A study of Arabidopsis thaliana with 6 samples.

Results

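Sugar transporter genes of the SWEET and TMT families were compared between root tips of an Arabidopsis thaliana line with mutations in 4 class III HD-ZIP (homeodomain-leucine zipper) genes and root tips of Col er-2. Members were all genes with a probe set of their own that the platform's probe table or the TAIR10.1 gene table names SWEET, SUC, STP, TMT or INT with a number. These were 19 genes, 16 SWEET and 3 TMT, out of 13355 named genes and 22746 probe sets tested. For SUC, STP and INT the rule found 0 genes. That count reflects which probe sets and genes these tables name. Of the 47 known genes of these families, 23 had a probe set of their own, against the 19 members. The gene table gives an STP name to 10 of 14 STP genes and a family name to every gene of the other families. Thus some STP genes were on the arrays without an STP name. For the other genes the count does not show that they lack a probe set. The sucrose symporters, hexose symporters and inositol transporters were not analysed here, nor was SWEET12 of the SWEET family. The mutant carries athb8-11, cna-2, phb-13 and phv-6, alleles of ATHB8, CNA, PHB and PHV, and was measured on 3 arrays, as was Col er-2, the wild type of the study. Whether the mutant also carries er-2 is not given in the labels. Seedlings were 4 days past germination, had no treatment and grew on medium with 1% sucrose, and each array was hybridised with RNA of about 200 pooled tips of 0.5 mm.

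SWEET proteins are uniporters that let sugars pass down their gradient. In Arabidopsis, clades I and II carry mainly hexoses, clade III carries mainly sucrose and exports it from cells, as in phloem loading, and clade IV moves fructose and other sugars across the vacuolar membrane. TMT proteins, the tonoplast monosaccharide transporters, load sugars into the vacuole in exchange for protons. The cells of a root tip import their carbon, which arrives as sucrose through the protophloem, and HD-ZIP III factors pattern the xylem of the same vascular cylinder.

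The values were log2 signals, 1 for each probe set and array. Each member had 1 probe set, and 0 of the 19 carried the suffix that Affymetrix gives to sets shared between transcripts. Pairwise correlations of the arrays across probe sets ran from 0.989 to 0.996. Array medians were 5.59 on each mutant array and 5.56 to 5.57 on the Col er-2 arrays. PHV, the only mutated gene with a named probe set, had signals of 4.64, 4.93 and 4.66 in the mutant and 5.49, 5.80 and 5.68 in Col er-2, a difference of -0.92 with a Benjamini-Hochberg adjusted p of 0.0639 from limma. Where that probe set lies relative to the phv-6 lesion is not known here, so it is a limited check of the genotype.

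TMT1 was the only member with a signal above the array median on all 6 arrays, while 14 of the 19 lay at or below it on all 6. SWEET1, SWEET11, SWEET16 and TMT2 lay above it on some arrays. The table holds no detection calls, so whether the transcripts of dim probe sets were present is not known, and signals of different probe sets were not compared as transcript amounts. A lower signal from bulk tips cannot separate fewer cells of a type from less RNA in each cell.

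**Figure D1:**
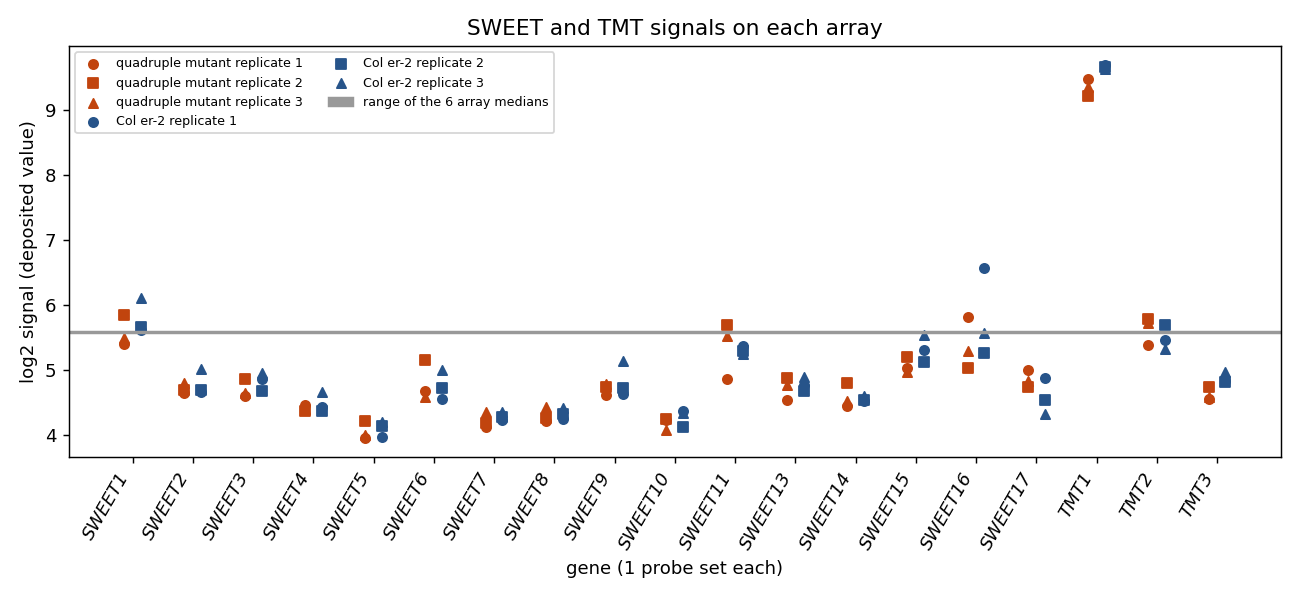
Log2 signal (vertical axis) of each SWEET and TMT gene (horizontal axis) on the 3 mutant arrays (orange) and the 3 Col er-2 arrays (blue), with marker shape for the replicate number and a grey band for the range of the 6 array medians. TMT1 lies well above the band at 9.21 to 9.70, with the orange points below the blue ones, and most SWEET genes lie under the band with overlapping colours.

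None of the transporter genes passed the test between genotypes. With limma and Benjamini-Hochberg adjustment over all 22746 probe sets, 0 of 19 reached an adjusted p under 0.05, where 6 probe sets did in all, or 0.0264%. The smallest adjusted p among the members was 0.463, that of TMT1. At an unadjusted p under 0.05 there were 2 of 19, TMT1 and TMT3, against 7.47% of all probe sets. Those same 2 genes were the ones whose genotypes did not overlap, both lower in the mutant, where 5.57% of all probe sets were lower without overlap and 13.1% did not overlap in either direction. A count of 2 in 19 is near these shares, and nothing is read from it.

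TMT1, a vacuolar sugar importer, had signals of 9.49, 9.21 and 9.36 in the mutant and 9.70, 9.66 and 9.63 in Col er-2. All mutant arrays lay below all Col er-2 arrays, and the Col er-2 values were tight, with an SD of 0.04 against 0.14 in the mutant (n = 3 each). The mean signals were 9.35 for the mutant and 9.67 for Col er-2, a log2 difference of -0.31 with a 95% confidence interval of -0.52 to -0.10. In linear signal the mutant stood at 80.5% of Col er-2. The unadjusted limma p was 0.00869, and the adjusted p over all probe sets was 0.463, so the difference did not pass. With each array left out in turn the difference ran from -0.38 to -0.24, and in all 13 alternative settings the unadjusted p stayed between 0.00471 and 0.0304.

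TMT3, a relative of TMT1 in the same vacuolar family, had signals of 4.55, 4.73 and 4.58 in the mutant and 4.83, 4.81 and 4.96 in Col er-2. Again no mutant array reached a Col er-2 array, though the gap between the nearest arrays was small and all 6 signals lay below the array medians. The means were 4.62 ± 0.10 and 4.87 ± 0.08 (SD, n = 3), a log2 difference of -0.24 with a 95% confidence interval of -0.45 to -0.04. Its unadjusted limma p was 0.0236 and its adjusted p 0.574. That unadjusted p stayed under 0.05 in 9 of the 13 alternative settings and reached 0.091, and it was 0.077, 0.076 and 0.072 without mutant replicate 1, mutant replicate 3 and Col er-2 replicate 3.

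TMT2, which loads the vacuole alongside TMT1, had the opposite sign, at 5.38, 5.78 and 5.72 in the mutant and 5.46, 5.69 and 5.33 in Col er-2. The genotypes overlapped, and the difference of 0.13 had a 95% confidence interval of -0.18 to 0.45 and an adjusted p of 0.883 with limma. With 1 array left out it ran from 0.05 (without Col er-2 replicate 3) to 0.26 (without mutant replicate 1). Whether TMT2 differed from TMT1 in its response was not tested. The median of the 3 TMT differences was -0.24, beside 0.01 over all probe sets. With 3 genes it is the value of the dim TMT3, and TMT2 had the other sign, so no shift of the subfamily is read from it.

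**Figure D2:**
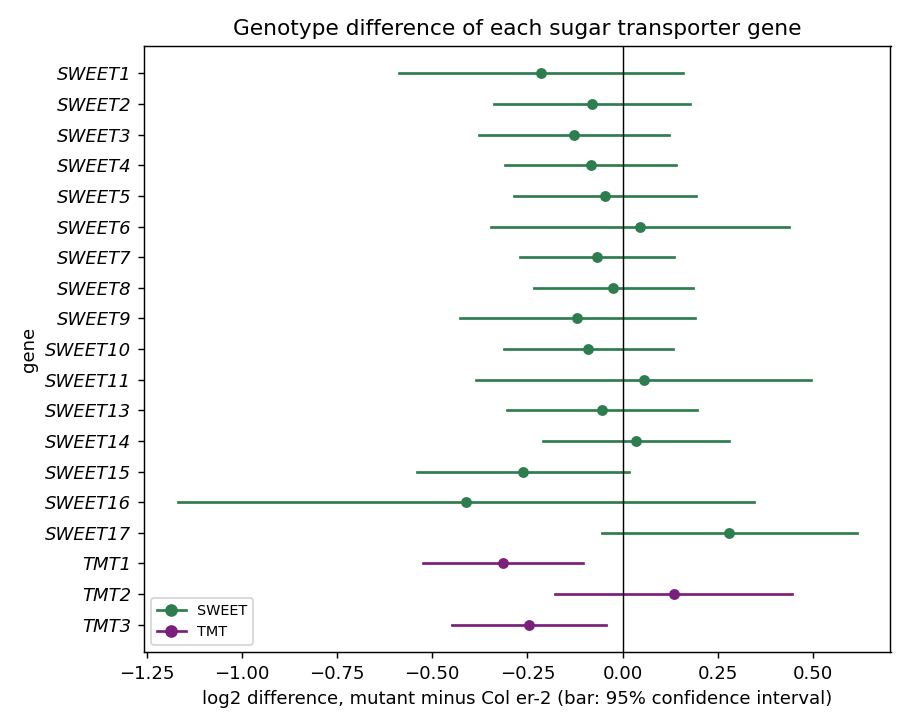
Log2 difference, mutant minus Col er-2 (horizontal axis), of each gene, with 95% confidence intervals from limma as bars, SWEET in green and TMT in purple. The intervals of TMT1 and TMT3 lie below 0, all others span it, and that of SWEET16 is the widest, from -1.17 to 0.35.

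Clade I of the SWEET family was lower in the mutant for 3 of 3 genes, with none past the threshold. SWEET1, a glucose uniporter of the plasma membrane, had signals of 5.40, 5.85 and 5.49 in the mutant and 5.61, 5.67 and 6.10 in Col er-2, which overlap. Its difference of -0.21 (95% confidence interval -0.59 to 0.16) had a limma adjusted p of 0.834, and without Col er-2 replicate 3, the highest array, it was -0.06. SWEET2, a vacuolar glucose transporter known to limit sugar loss from Arabidopsis root tips, stood at 4.64, 4.69 and 4.80 in the mutant and 4.66, 4.69 and 5.02 in Col er-2. The difference of -0.08 (95% confidence interval -0.34 to 0.18) rested on that same Col er-2 array, without which it was 0.03. SWEET3 differed by -0.13 (adjusted p = 0.852 with limma).

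Clade II held 5 genes, SWEET4 to SWEET8, with signals at or below the array medians on all 6 arrays. SWEET5 and SWEET8 are genes of pollen development, and SWEET4 carries hexoses in veins. Their differences lay between -0.08 and 0.05, 4 lower and 1 higher, with limma adjusted p of 0.903 to 0.976. SWEET6, the gene with the positive sign, had a mutant range of 4.58 to 5.15 and a Col er-2 range of 4.55 to 4.99, so its arrays interleaved.

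The sucrose-carrying clade III gave 4 genes lower and 2 higher of 6. SWEET15, also known as the senescence gene SAG29, had signals of 5.03, 5.19 and 4.96 in the mutant and 5.31, 5.12 and 5.54 in Col er-2. Only Col er-2 replicate 2 fell within the mutant's range. Its difference of -0.26 (95% confidence interval -0.54 to 0.02) had the smallest p among the SWEET genes, 0.0615 unadjusted and 0.704 adjusted with limma, and kept its sign with each array left out (-0.36 to -0.15).

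SWEET11, a sucrose exporter of phloem loading in leaves, had signals of 4.86, 5.69 and 5.52 in the mutant and 5.37, 5.30 and 5.24 in Col er-2. Mutant replicate 1 lay below every Col er-2 array and the other mutant arrays above them. The difference was 0.06 (95% confidence interval -0.38 to 0.50) with all arrays. It was 0.30 without mutant replicate 1, -0.11 without mutant replicate 2 and -0.02 without mutant replicate 3. Of the rest of the clade, SWEET9, which secretes nectar, differed by -0.12 and SWEET10 by -0.09. SWEET13 and SWEET14, which act in anthers and also carry gibberellin, differed by -0.05 and 0.04. Limma's adjusted p for the 6 genes ran from 0.704 to 0.975.

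Clade IV, the vacuolar SWEETs, held the largest difference in each direction among the 19 genes, and neither passed. SWEET16 had signals of 5.82, 5.03 and 5.29 in the mutant and 6.56, 5.25 and 5.56 in Col er-2. Replicate 1 was the highest array in both genotypes, replicate 3 the next and replicate 2 the lowest. The difference of -0.41 had a 95% confidence interval of -1.17 to 0.35 and a limma adjusted p of 0.846. Without Col er-2 replicate 1 it was -0.03, and without replicate 1 of both genotypes it was -0.24.

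SWEET17, a fructose carrier of the root vacuole, had signals of 5.003, 4.74 and 4.83 in the mutant and 4.88, 4.53 and 4.32 in Col er-2. Its arrays overlapped through Col er-2 replicate 1, the highest of that genotype. The difference of 0.28 (95% confidence interval -0.05 to 0.61) had a limma adjusted p of 0.741, with an unadjusted p of 0.0896. It was 0.43 without Col er-2 replicate 1 and 0.15 without Col er-2 replicate 3. Whether SWEET16 and SWEET17 differed from each other in response was not tested.

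**Figure D3:**
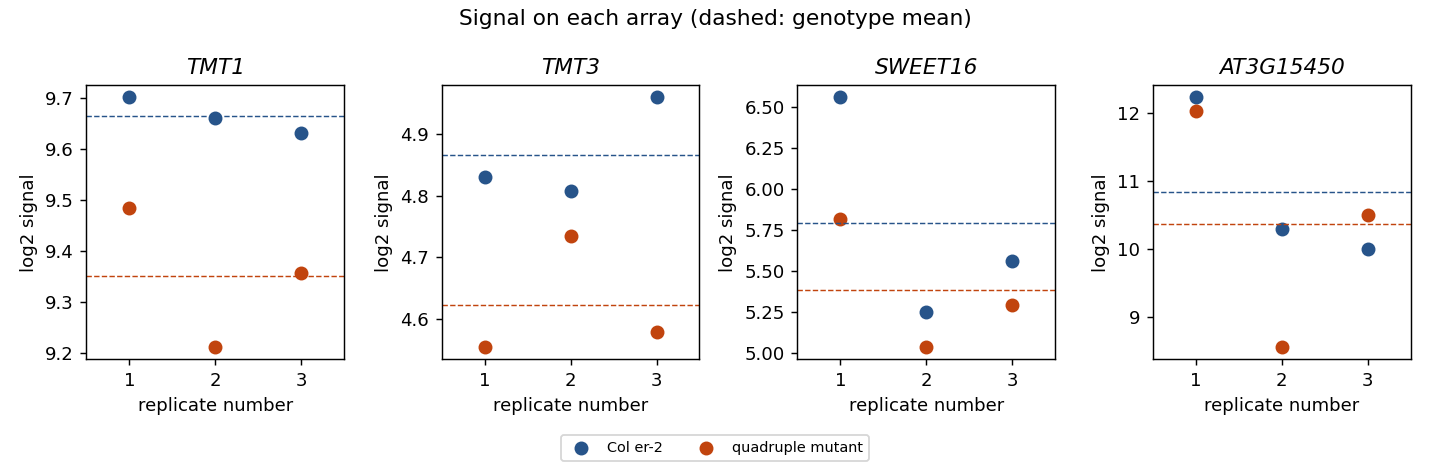
Log2 signal (vertical axis, its own scale in each panel) by replicate number (horizontal axis) for TMT1, TMT3, SWEET16 and AT3G15450 in Col er-2 (blue) and the mutant (orange), with dashed lines at the genotype means. Colours separate for TMT1 and TMT3, and TMT1, SWEET16 and AT3G15450 are highest in replicate 1 of both genotypes.

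For 3 of 19 members, TMT1, SWEET16 and SWEET17, replicate 1 was the highest array within each genotype, a share near the 11.6% of all probe sets. AT3G15450, a locus entered here in a list of sugar starvation genes and left without a symbol by the gene table, stood at 12.03, 8.55 and 10.50 in the mutant and 12.23, 10.30 and 9.996 in Col er-2. Its replicate 1 arrays were the highest too, and its genotype difference of -0.48 had a 95% confidence interval of -2.47 to 1.51. AKINBETA1, a subunit of the SnRK1 kinase that responds to low sugar, had its highest signal in replicate 1 of both genotypes as well, 8.05 and 8.26. Conversely 7 members, SWEET1, SWEET2, SWEET5, SWEET7, SWEET8, SWEET9 and SWEET14, had their lowest array of each genotype in replicate 1, against 20.4% of all probe sets. With a block on replicate number in limma, SWEET16 had an unadjusted p of 0.00871 and an adjusted p of 0.314. For SWEET17 these were 0.0271 and 0.437. Beyond that block and leaving those arrays out, the part of replicate number in the transporter values was not tested.

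In sign, 14 of the 19 transporter genes were lower in the mutant, 12 of 16 SWEET and 2 of 3 TMT, beside 47.4% of all probe sets. The median difference was -0.08 over the 19 genes and -0.07 over the SWEET genes. Without Col er-2 replicate 3 the count was 8 of 19, beside 42.6% of all probe sets in that setting. SWEET2, SWEET4, SWEET5, SWEET8, SWEET9 and SWEET13 turned sign there, and the SWEET median was 0.01. That array was the highest of the 6 for 9 members, against 23.7% of all probe sets, and mutant replicate 1 was the lowest for 11 members, against 20.1%. The mean log2 signal of RCA and LHCB4.1, photosynthesis genes read as green tissue markers, was 5.86 on Col er-2 replicate 3 and 5.15 to 5.42 on the other arrays. Their part in the SWEET signals was not tested.

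**Figure D4:**
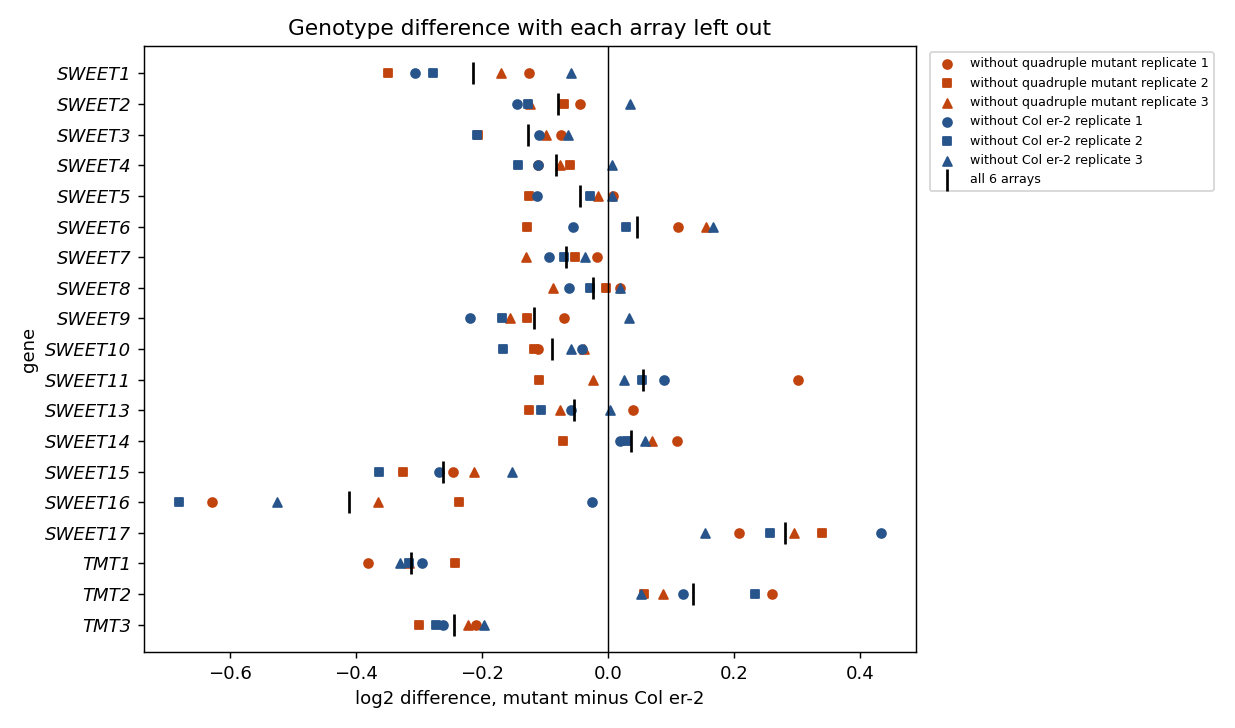
Log2 difference, mutant minus Col er-2 (horizontal axis), of each gene with all 6 arrays (black bar) and with each array left out (orange for a mutant array left out, blue for a Col er-2 array, shape for its replicate number). TMT1, TMT3, SWEET1, SWEET3, SWEET7, SWEET10, SWEET15 and SWEET16 stay below 0 throughout, and TMT2 and SWEET17 above it. Leaving out Col er-2 replicate 3 (blue triangles) moves SWEET2, SWEET4, SWEET5, SWEET8, SWEET9 and SWEET13 across 0.

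How large a change these arrays leave possible can be read from the intervals. For 14 of the 19 genes the 95% confidence interval lay within 0.5 of 0 on the log2 scale, or 1.41-fold, and the exceptions were SWEET1, SWEET15, SWEET16, SWEET17 and TMT1. All but SWEET16 lay within 1 of 0, or 2-fold. These are intervals of the signals, and for the dim probe sets the transcripts may differ by more, since background correction compresses low signals.

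Other genes of sugar handling gave the same count of calls. Of 61 genes of sucrose synthesis and cleavage, hexose phosphorylation, polyol and other sugar transport, trehalose phosphate synthesis and starvation response, 15 had a named probe set, with 0 of 15 called by limma at the adjusted threshold and 0 of 15 at an unadjusted p under 0.05. Lower mean signals in the mutant were seen for 10 of the 15 and higher ones for 5, beside 47.4% of all probe sets lower. Of the lower ones, AT2G20780, AT5G17010, ATSPS4F, AT3G15450 and AKINBETA1 turned sign when 1 array was left out. So did AT1G06020, AT3G59480, AT2G18480 and SFP1 of the higher ones. Genotypes did not overlap for 3 of 15, all lower in the mutant, beside the 5.57% given above for all probe sets, and the count at an unadjusted p under 0.05 stands beside 7.47%. Among those with a symbol, cwINV6, a gene of the cell wall invertase family, differed by 0.12 and ATSPS4F, a sucrose phosphate synthase, by -0.01. The sugar transporter genes SFP1 and SFP2 differed by 0.08 and -0.16 and AKINBETA1 by -0.18. The other 10, without a symbol, ran from -0.48 (AT3G15450) to 0.16 (AT2G18480). By the rule of smallest p in each list, AT1G62660 differed by -0.14, AT4G10260 by -0.12 and AT5G51830 by -0.13. Limma's adjusted p over these 15 ran from 0.761 to 0.996.

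Markers of tissues that the cut tips could hold were few, 14 of 59 entries, and limma called 0 of them. AT1G62500, used as a cortex marker, was the single one of 14 with an unadjusted p under 0.05, beside 7.47% of all probe sets, with signals of 7.85, 8.15 and 8.30 in the mutant and 7.48, 7.74 and 7.37 in Col er-2 and a limma adjusted p of 0.369. EXPA7 and RCA were lower in the mutant without overlap, 2 of 14, beside 5.57% of all probe sets. AT1G62500 was higher without overlap, 1 of 14. Of all probe sets, 13.1% did not overlap in either direction. Phloem markers, 4 of 22 named and all at or below the array medians on all 6 arrays, had a mean log2 signal of 4.72 to 4.86 on the mutant arrays and 4.66 to 4.73 on the Col er-2 arrays. OPS differed by 0.19 and AT5G02460 by 0.07, and CLE41 and CLE44 by 0.06 and 0.02. The xylem genes GUT2 and IRX15 differed by 0.13 and 0.22 and JKD of the ground tissue by -0.14. In the root cap list AT1G65570 differed by 0.43, or by 0.18 without Col er-2 replicate 2 and 0.70 with array weights, and CR4 by 0.08. The root hair genes EXPA7 and EXPA18 differed by -0.17 and -0.11, and RCA and LHCB4.1 by -0.33 and -0.22, or by -0.12 and -0.08 without Col er-2 replicate 3. GUT2, IRX15, EXPA7 and EXPA18 also lay at or below the array medians on all 6 arrays, and RCA lay above on 1. Whether these dim markers were expressed in the tips is not known.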

How the data were processed

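The deposited table holds 1 log2 signal per probe set and array. The submitters' processing notes name the tools RMA, limma and Affymetrix Expression Console, with no version and no step. That the deposited log2 values come from RMA is inferred from those names and the values' range. RMA corrects background, quantile normalizes arrays and summarises probes, so a change common to most transcripts is removed and differences of dim probe sets are compressed.

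From 22810 probe sets, 64 controls were left out. In R 4.3.3, limma 3.58.1 (lmFit, eBayes) was fitted to the other 22746 for the contrast of mutant less Col er-2, with Benjamini-Hochberg adjustment over all of them, and called at an adjusted p under 0.05. Depth is not defined for arrays, and 3 per genotype limit the precision. The series calls the arrays biological replicates. The probe table gave 1 gene for 13513 probe sets, several for 503 and did not list 8730. The naming rule gave every array for members with an unadjusted p under 0.05 or without overlap, or else the smallest p of a subfamily, and of each list the 2 smallest p. SWEET1, SWEET2, SWEET11, SWEET16, SWEET17 and TMT2 and further list genes were added after values were seen, as were the clades and the comparison by replicate 1. Members and lists were chosen with earlier results of these data known. The alternatives tried were a block on replicate number, leaving out each array, a filter under the 35th percentile, trend with robust, median centring, repeated quantile normalization, array weights and an adjusted p under 0.1. Leaving out both replicate 1 arrays was added after the data were seen. The fit was tested on simulated data with independent arrays and no replicate effect. That test cannot show how the fit performs where arrays share such an effect.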

Additional observations from a re-analysis of the deposited data

How the results depend on the processing

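The count of 0 transporter genes called held in all 14 alternatives, an adjusted p under 0.1 included. All probe sets called went from 6 to 109 with the replicate block, 27 with trend and robust, 11 with repeated quantile normalization, 22 with array weights and 19 at an adjusted p under 0.1, and to 1 to 8 with 1 array left out. Deviations from the genotype means correlated between arrays of one number at 0.504 for replicate 1, 0.065 for replicate 2 and 0.176 for replicate 3. Between arrays of unlike numbers the correlations ran from -0.425 to 0.317. The main fit took no account of replicate number, and whether the numbers mark pairs was not tested. The replicate block moved transporter genes at an unadjusted p under 0.05 from 2 to 4, with SWEET16 at 0.00871 and an adjusted p of 0.314. That count ran from 1 to 3 with 1 array left out, and it was 1 without mutant replicate 3 or Col er-2 replicate 3. The share of all probe sets at an unadjusted p under 0.05 was taken for the main fit only, at 7.47%. Without that share in the other settings, nothing is read from the counts there. Genes with a lower mutant signal ran from 8 to 17 of 19 with 1 array left out, beside 42.6% to 52.3% of all probe sets. They were 9 of the 13 that remained with dim probe sets left out, beside 43.5%. With median centring they were 14 of 19, beside 55.9%. The SWEET median ran from -0.12 to 0.01 and the TMT median, the value of 1 gene in each setting, from -0.27 to -0.20. Since each gene has 1 probe set, averaging probe sets changes nothing and was not run.

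Of 620 recomputed values of 49 single genes, 573 kept direction and side of the threshold, 4 were newly past it, all PHV, and 43 turned sign, none of them called. Array weights turned SWEET6 to -0.018, SWEET8 to 0.024 and AT1G06020 to -0.072, median centring AT1G06020 to -0.017 and CLE44 to -0.00022, and leaving out both replicate 1 arrays SWEET13 to 0.034 and CLE41 to -0.046. With 1 array left out, the differences that turned sign ran from -0.15 to 0.034 (SWEET2), -0.14 to 0.0054 (SWEET4), -0.13 to 0.0067 (SWEET5), -0.13 to 0.17 (SWEET6), -0.088 to 0.018 (SWEET8), -0.22 to 0.033 (SWEET9), -0.11 to 0.30 (SWEET11), -0.12 to 0.039 (SWEET13) and -0.072 to 0.11 (SWEET14). Of the lists they ran from -0.053 to 0.068 (AT1G06020), -0.043 to 0.18 (AT3G59480), -0.085 to 0.32 (AT2G18480), -0.15 to 0.034 (AT2G20780), -0.025 to 0.21 (SFP1), -0.54 to 0.15 (AT5G17010), -0.055 to 0.053 (ATSPS4F), -1.32 to 0.42 (AT3G15450), -0.31 to 0.032 (AKINBETA1), -0.042 to 0.17 (CLE41), -0.023 to 0.061 (CLE44), -0.0090 to 0.16 (AT5G02460) and -0.27 to 0.011 (EXPA18). Among 49 single-gene differences, 43 shifted across 0 or by over 1.5 times when 1 array was left out. These included 17 of the 19 transporter genes, all but TMT1 and TMT3. The genotypes of TMT1 and TMT3 did not overlap, so leaving out 1 array could not turn their sign. The limit of 1.5 times is relative to each difference, so small differences exceed it easily. No share over all probe sets was taken for this rule. The cause of the shifts was not tested. Low signal limits the 14 members at or below the array medians.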
